A study of Mus musculus with 4 samples.

Results

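The 10 genes described here encode the enzymes, transporters and receptors with which mast cells make, store and release amines and lipid mediators. They were taken by symbol from a table of 24421 genes, and all 10 were found. Hdc, Slc18a2, Tph1 and Slc6a4 belong to histamine and serotonin handling, Hpgds and Alox5 to eicosanoid synthesis, Cyp11a1 to steroid synthesis, and Mrgprb1, Mrgprb2 and Fcer1a are receptors. RNA sequencing was done on LSK cells, the lineage-negative, Sca-1-positive and Kit-positive fraction of mouse bone marrow, which holds stem cells and early multipotent progenitors. There were 2 libraries from Zfp521-/- mice (KO) and 2 from control littermates with a wild type genotype label (WT). Zfp521 encodes a zinc finger cofactor of transcription. No source used here gives the age of the mice, their number per library or the kind of knockout allele, so p-values measure the spread between these libraries, which may be in part technical.

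Mast cells and basophils keep histamine and, in rodents, serotonin in granules. Histidine decarboxylase makes histamine and tryptophan hydroxylase starts serotonin synthesis, a vesicular transporter loads both amines into granules, and a plasma membrane transporter takes serotonin up. On activation, arachidonic acid is turned into prostaglandin D2 and leukotrienes. Activation runs through the IgE receptor or, in connective tissue mast cells, through the Mrgprb2 receptor for cationic peptides and drugs. Mast cells carry Kit, one of the gate's markers, on their surface. Whether they pass the whole gate, which also asks for Sca-1 and for no lineage marker, was not tested.

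Library totals lay between 17787425 and 29863594 counts. Zfp521 fell to 13.9 and 10.9 CPM (counts-per-million on TMM-scaled library sizes) in the KO libraries, against 56.0 and 57.5 CPM in the WT libraries (log2 fold change -2.19, SE 0.23, edgeR quasi-likelihood test, adjusted p = 0.000491). The groups were not matched for sex, since 4 Y-linked genes summed to 5606 counts in WT replicate 2 and to between 9 and 14 counts in each of the other 3 libraries. Of the 10 stem and progenitor markers, 9 did not pass the test, Cd34 fell (log2 fold change -0.61, adjusted p = 0.0408; adjusted p between 0.0933 and 0.231 without KO replicate 2, WT replicate 1 or WT replicate 2), and their summed level was 3688 and 3407 CPM in KO and 3252 and 3469 CPM in WT, so the gate's defining transcripts were abundant in every library.

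The upstream sequences of Mrgprb1, Mrgprb2, Slc6a4 and Tph1 are shown because only the KO libraries brought these 4 genes past the filter on low counts. Each run is the 250 bases before the transcription start in RefSeq (build GRCm38.p6), 5′ to 3′ on the gene's strand, at chr7:48456343-48456592 and chr7:48558087-48558336 (both minus strand), at chr11:76998347-76998596 (plus strand) and, for the 2 starts of Tph1, at chr7:46672538-46672787 and chr7:46667378-46667627 (minus strand). Capitals mark matches on either strand, none of which overlap. For GATA factors the motif AGATAA and the variant TGATAA were searched, for the E-boxes that MITF binds the motif CATGTG and the variant CACGTG, and for AP-1 the motif TGACTCA.
Mrgprb1: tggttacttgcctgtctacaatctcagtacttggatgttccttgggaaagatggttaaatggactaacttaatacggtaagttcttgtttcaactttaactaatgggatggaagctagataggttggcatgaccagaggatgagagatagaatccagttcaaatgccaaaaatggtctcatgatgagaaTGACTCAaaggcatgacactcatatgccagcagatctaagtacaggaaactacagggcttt
Mrgprb2: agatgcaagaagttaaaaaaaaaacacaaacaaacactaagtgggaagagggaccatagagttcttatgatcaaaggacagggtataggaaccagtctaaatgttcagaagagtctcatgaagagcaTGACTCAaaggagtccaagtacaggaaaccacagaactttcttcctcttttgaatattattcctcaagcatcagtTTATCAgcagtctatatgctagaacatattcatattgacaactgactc
Slc6a4: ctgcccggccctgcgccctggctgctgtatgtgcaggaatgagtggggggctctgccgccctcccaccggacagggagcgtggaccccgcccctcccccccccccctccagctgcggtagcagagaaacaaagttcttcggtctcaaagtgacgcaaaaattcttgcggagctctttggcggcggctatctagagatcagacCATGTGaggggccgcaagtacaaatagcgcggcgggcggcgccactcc
Tph1, first start: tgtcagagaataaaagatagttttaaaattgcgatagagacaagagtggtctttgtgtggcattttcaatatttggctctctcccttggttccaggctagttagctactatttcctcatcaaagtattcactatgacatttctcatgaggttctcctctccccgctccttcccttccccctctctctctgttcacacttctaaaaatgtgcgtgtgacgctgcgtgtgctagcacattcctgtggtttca
Tph1, second start: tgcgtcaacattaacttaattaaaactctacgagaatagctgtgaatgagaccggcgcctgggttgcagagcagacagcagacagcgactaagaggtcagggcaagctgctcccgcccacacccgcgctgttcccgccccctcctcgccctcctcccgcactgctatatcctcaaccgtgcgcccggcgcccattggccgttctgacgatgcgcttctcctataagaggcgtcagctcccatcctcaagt
Neither Tph1 window held a match. Mrgprb1 and Mrgprb2 are neighbours on chromosome 7 with 94622 bases between them, and 55 of 71 aligned bases of their upstream stretches were identical (77.5%). The TGACTCA match lies inside that aligned stretch in both genes, from 61 bases before the start in Mrgprb1 and from 123 bases before it in Mrgprb2. The AP-1 motif was searched after the sequences had been read. It occurred in 4.46% of 32851 RefSeq upstream windows of the same length, against 17.6% for the E-boxes and 16.6% for the GATA sites. All 10 genes had a RefSeq window, Tph1 and Cyp11a1 having 2 each. Of these 12 windows, 3 held a GATA site (Fcer1a, Mrgprb2, Slc18a2), 4 an E-box (Cyp11a1, Fcer1a, Hpgds, Slc6a4) and 2 the AP-1 motif (Mrgprb1, Mrgprb2). A match describes letters and not a bound site.

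The 4 amine genes Hdc, Slc18a2, Tph1 and Slc6a4 each rose in the KO libraries, as did Alox5 and Mrgprb1, so 6 of the 10 genes rose and none fell. With 1 library left out, 8 rose without KO replicate 2, 7 without KO replicate 1 and 4 without either WT library. Of all 14140 genes tested, 3.77% rose (533) and 3.01% fell (425), or 664 and 289 genes with upper quartile factors. The other 4 genes, Hpgds, Cyp11a1, Mrgprb2 and Fcer1a, had positive log2 fold changes that did not pass. The median log2 fold change of the 10 genes was 2.91, also with the genes unread in WT set at their lower bound, and that of all genes tested was 0.02. Slc6a4, Tph1, Mrgprb1 and Mrgprb2 passed the filter on low counts through their KO libraries alone, so these genes could only differ upward, and the count and median carry that selection. Both KO libraries lay above both WT libraries for 9 of the 10 genes, against 28.8% of all genes tested. For Slc6a4, Tph1, Mrgprb1 and Mrgprb2 this separation carries the same selection, since neither WT library reached the cutoff of the filter. In whole sorted fractions, more cells of a type and more RNA per cell cannot be told apart.

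**Figure D1:**
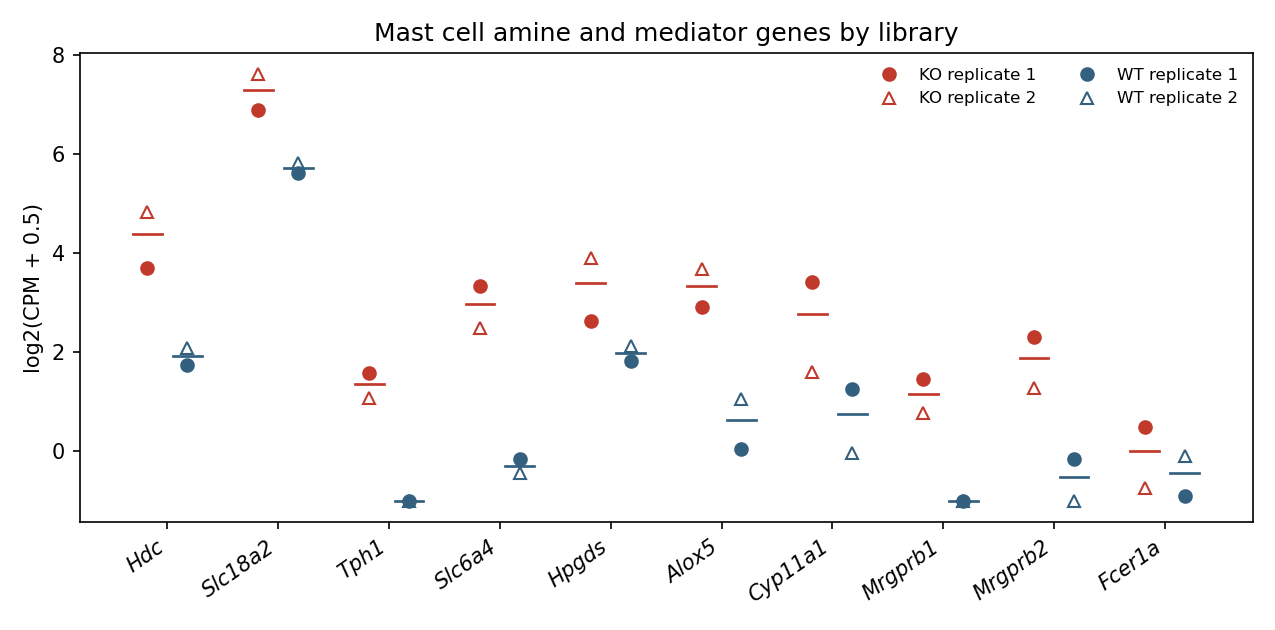
Level of the 10 genes as log2(CPM + 0.5) in each library, KO left of WT for each gene; circles are replicate 1, triangles replicate 2, and bars mark the group mean. Both KO libraries lie above both WT libraries for every gene except Fcer1a, and Tph1 and Mrgprb1 have no WT read.

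Hdc encodes histidine decarboxylase, the enzyme that makes histamine (ENSMUSG00000027360.5, minus strand of chromosome 2, 126593667 to 126619299 in mm10). It had 276 and 553 counts in the KO libraries, against 79 and 93 counts in the WT libraries. This was 12.5 and 28.1 CPM in KO and 2.84 and 3.74 CPM in WT, so the groups did not overlap and the KO libraries differed from each other more than the WT libraries did. Hdc rose by 2.62 on the log2 scale (SE 0.43, adjusted p = 0.00605), with means of 20.3 ± 11.0 CPM in KO and 3.29 ± 0.640 CPM in WT (SD, n = 2 each).

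Slc18a2 encodes VMAT2, the vesicular transporter that loads histamine and serotonin into granules (ENSMUSG00000025094.8, plus strand of chromosome 19, 59260896 to 59296012). It had 118 and 194 CPM in KO and 48.2 and 55.7 CPM in WT, from 2609, 3822, 1342 and 1385 counts. All 4 libraries thus carried this transcript in quantity, and both KO libraries stood above both WT libraries. Slc18a2 rose by 1.59 (SE 0.23, adjusted p = 0.00283), or 3.0-fold, with means of 156 ± 53.9 CPM in KO and 52.0 ± 5.33 CPM in WT (SD, n = 2 each). The related transporter gene Slc18a1 had 1 and 0 counts in KO and 0 and 2 counts in WT, too few to be tested.

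Tph1 encodes tryptophan hydroxylase 1, the first enzyme of serotonin synthesis outside the brain (ENSMUSG00000040046.14, minus strand of chromosome 7, 46644641 to 46672537). It had 55 and 32 counts in KO, 2.49 and 1.63 CPM, and no count in either WT library. Against a floor of 3 counts per library, which is 0.121 CPM in the shallower WT library, the KO mean of 2.06 ± 0.608 CPM (SD, n = 2) was at least 17.0-fold higher (adjusted p = 0.0124, edgeR). Floors and counting intervals here cover counting error only, and the bounds on folds leave out the spread of the KO libraries. With 1 WT library in place of 2, Tph1 missed the threshold (adjusted p = 0.093 without WT replicate 1 and 0.0779 without WT replicate 2). Tph2, the neuronal enzyme, had 0 and 1 counts in KO and none in WT.

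Slc6a4 encodes the plasma membrane serotonin transporter (ENSMUSG00000020838.12, plus strand of chromosome 11, 76998603 to 77032340). It had 211 and 100 counts in KO, against 11 and 6 counts in WT, which is 9.54 and 5.08 CPM in KO and 0.395 and 0.241 CPM in WT. The groups did not overlap, a separation that carries the selection by the filter on low counts, and the fold rests on 17 WT reads. Slc6a4 rose by 4.49 (SE 0.67, adjusted p = 0.00351), the steepest fitted rise among the 8 genes with a WT read.

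Beside these 4, other genes of amine metabolism had smaller or negative log2 fold changes. The list of 17 genes for amine synthesis, storage, uptake and breakdown holds those 4 among its 13 tested members. The other 9 did not pass in either direction (list median 0.23), although with the replicate block edgeR called 1 lower. Hnmt, which inactivates histamine by methylation, was at 13 ± 6.89 CPM in KO and 7.62 ± 0.667 CPM in WT (SD, n = 2 each; log2 fold change 0.77, adjusted p = 0.266). Its groups did not overlap, and its log2 fold change was 1.22 without KO replicate 1 and 0.09 without KO replicate 2. Maoa, the oxidase that breaks down serotonin, had a log2 fold change of 0.61 (adjusted p = 0.179), and Slc22a3, a low-affinity amine carrier, one of -0.45 (adjusted p = 0.156). Qdpr, which regenerates the cofactor of tryptophan hydroxylase, had 23.2 and 17.8 CPM in KO and 37.0 and 29.6 CPM in WT (log2 fold change -0.70, adjusted p = 0.117). Ddc, the decarboxylase that completes serotonin synthesis, had 12 and 0 counts in KO and 67 and 11 counts in WT (log2 fold change -2.35, SE 1.32, adjusted p = 0.298). Of 11 histamine and serotonin receptor genes, 3 were tested and none passed, namely Hrh2 (log2 fold change 0.70, adjusted p = 0.23, edgeR), Htr2a (1.25, adjusted p = 0.0993) and Htr2b (1.77, adjusted p = 0.142). Of these 2 had an unadjusted p under 0.05 (edgeR), as did 3465 of all 14140 genes tested. DESeq2 called 1 member of that list higher.

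Alox5 encodes arachidonate 5-lipoxygenase, which starts leukotriene synthesis (ENSMUSG00000025701.12, minus strand of chromosome 6, 116410077 to 116461178). It had 155 and 242 counts in KO, against 15 and 39 counts in WT, which is 7.0 and 12.3 CPM in KO and 0.539 and 1.57 CPM in WT. Both KO libraries were well above both WT libraries, which differed from each other by more than their counting error (ratio of WT replicate 1 to WT replicate 2 of 0.343, 95% exact interval 0.176 to 0.637). Alox5 rose by 3.20 (SE 0.60, adjusted p = 0.012), and missed the threshold without WT replicate 1 (log2 fold change 2.61, adjusted p = 0.0539).

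Hpgds encodes hematopoietic prostaglandin D synthase (ENSMUSG00000029919.5, minus strand of chromosome 6, 65117293 to 65144908). It had 5.65 and 14.5 CPM in KO and 3.02 and 3.86 CPM in WT. KO replicate 2 stood apart, while KO replicate 1 was closer to the WT libraries than to it. The log2 fold change was 1.55 (SE 0.50) and did not pass (adjusted p = 0.0827). It was 2.07 without KO replicate 1 (adjusted p = 0.00346) and 0.71 without KO replicate 2 (adjusted p = 0.514), so its size depended on 1 library.

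Of the 18 eicosanoid synthesis genes, 17 were tested, Alox5 rose and Ptges3 fell, and 15 did not pass (list median -0.23, against 0.02 for all genes tested). Ptges3, which encodes the cytosolic prostaglandin E synthase also known as the p23 cochaperone, had 180 and 154 CPM in KO and 360 and 279 CPM in WT (log2 fold change -0.93, SE 0.17, adjusted p = 0.01; adjusted p = 0.127 without WT replicate 1). Alox5ap, the partner protein of 5-lipoxygenase, was far more abundant than Alox5 in counts, with 3616 and 3599 in KO and 3718 and 3581 in WT (log2 fold change 0.32, adjusted p = 0.225). Ltc4s, which makes leukotriene C4, had 3.57 and 5.89 CPM in KO and 1.83 and 1.85 CPM in WT (log2 fold change 1.36, adjusted p = 0.173). Pla2g4a, the phospholipase that frees arachidonic acid, and the cyclooxygenase gene Ptgs1 had log2 fold changes of -0.32 and -0.23 (adjusted p = 0.405 and 0.492), and the thromboxane synthase gene Tbxas1 one of 0.59 (adjusted p = 0.0809). Among 12 eicosanoid receptor genes, 9 were tested and 1 rose. This was Ptgir, the prostacyclin receptor, with 343 and 254 counts in KO and 26 and 15 counts in WT, which is 15.5 and 12.9 CPM in KO and 0.933 and 0.603 CPM in WT (log2 fold change 4.19, SE 0.46, adjusted p = 0.000533). Its KO libraries were close to each other, and the call held with each library left out.

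Cyp11a1 encodes the mitochondrial enzyme that cleaves the cholesterol side chain to pregnenolone, the entry step of steroid synthesis (ENSMUSG00000032323.13, plus strand of chromosome 9, 58006411 to 58027023). It had 225 and 50 counts in KO and 53 and 12 counts in WT, which is 10.2 and 2.54 CPM in KO and 1.90 and 0.483 CPM in WT. Replicate 1 exceeded replicate 2 by almost the same ratio in both groups, 4.0 in KO (95% exact interval 2.94 to 5.56) and 3.94 in WT (2.08 to 8.10), and KO replicate 2 was only a little above WT replicate 1. The log2 fold change was 2.40 (SE 0.79) and did not pass (adjusted p = 0.0895). Single libraries moved it to 1.07 without KO replicate 1 (adjusted p = 0.518), 3.06 without KO replicate 2 (adjusted p = 0.00316) and 3.70 without WT replicate 1 (adjusted p = 0.0727). Of 16 steroid synthesis genes 7 were tested and none passed in edgeR, where Cyp11a1 alone had an unadjusted p under 0.05, while DESeq2 called 1 higher. Star, the cholesterol carrier that supplies Cyp11a1, had a log2 fold change of 0.50 (adjusted p = 0.255). Another 8 genes of that list, among them Hsd3b1 and Nr5a1, had no read in any library.

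**Figure D2:**
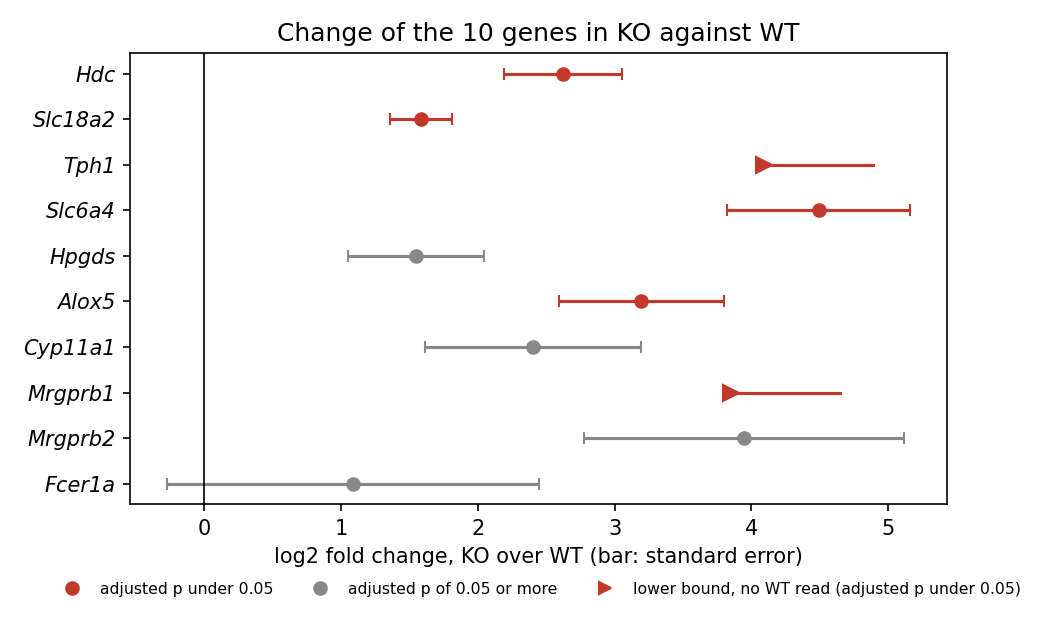
Log2 fold change of KO over WT for the 10 genes, with bars for the standard error; red marks an adjusted p under 0.05 and arrows mark lower bounds for the 2 genes with no WT read. Slc18a2 has the narrowest error (0.23), and the bar of Fcer1a crosses 0.

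Mrgprb1 and Mrgprb2 encode G protein-coupled receptors of the Mas-related family, and Mrgprb2 is known as the mouse counterpart of human MRGPRX2. Mrgprb1 (ENSMUSG00000070547.4, minus strand of chromosome 7, 48444113 to 48456342) had 50 and 24 counts in KO, 2.26 and 1.22 CPM, and none in WT. Its KO mean of 1.74 ± 0.736 CPM (SD, n = 2) was at least 14.4-fold above the floor of 3 counts per library (adjusted p = 0.0162). The call was lost with either WT library left out (adjusted p = 0.131 without WT replicate 1 and 0.106 without WT replicate 2). Mrgprb2 (ENSMUSG00000050425.2, minus strand of chromosome 7, 48550965 to 48558086) had 98 and 38 counts in KO and 11 and 0 counts in WT, which is 4.43 and 1.93 CPM in KO and 0.395 and 0 CPM in WT. The groups did not overlap, but the log2 fold change of 3.94 carried an SE of 1.17 and did not pass (adjusted p = 0.0662); it passed without KO replicate 2 (adjusted p = 0.021) and without WT replicate 1 (adjusted p = 0.031), which leaves only the WT library with no read. Both genes passed the filter on low counts through their KO libraries alone, so the separation of their groups carries that selection. The transcripts of the 2 genes shared no exact window of 76 bases, the number of sequencing cycles. Mrgprb3, Mrgprb4, Mrgprb5 and Mrgprb8 had no read in any library.

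Fcer1a encodes the IgE-binding chain of the high-affinity IgE receptor (ENSMUSG00000005339.10, minus strand of chromosome 1, 173221284 to 173227214). It had 20 and 2 counts in KO and 1 and 11 counts in WT, the fewest reads of the 10 genes. The groups overlapped, and the log2 fold change of 1.09 (SE 1.36) did not pass (adjusted p = 0.662). The positive value rested on KO replicate 1, since KO replicate 2, at 0.102 CPM, lay below the WT mean of 0.239 CPM. A change of Fcer1a was not detectable at this depth. The other chains of the receptor were read more deeply. Ms4a2, the beta chain that amplifies signalling, had 147 and 152 counts in KO and 43 and 13 counts in WT, which is 6.64 and 7.72 CPM in KO and 1.54 and 0.523 CPM in WT. Ms4a2 rose by 2.78 (SE 0.62, adjusted p = 0.0241; adjusted p = 0.117 without WT replicate 2). Fcer1g, the gamma chain shared with other Fc receptors, was at 36.7 ± 5.30 CPM in KO and 24.8 ± 4.14 CPM in WT (SD, n = 2 each; log2 fold change 0.56, adjusted p = 0.175). Of the 18 genes of the IgE receptor and its signalling, all tested, Ms4a2 and Cd300a rose and 16 did not pass (median 0.22). Cd300a, an inhibitory receptor of mast cells and other myeloid cells, had 66.8 and 70.0 CPM in KO and 35.6 and 32.1 CPM in WT (log2 fold change 1.02, adjusted p = 0.0119), and missed the threshold with either WT library left out (adjusted p = 0.0766 and 0.114).

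**Figure D3:**
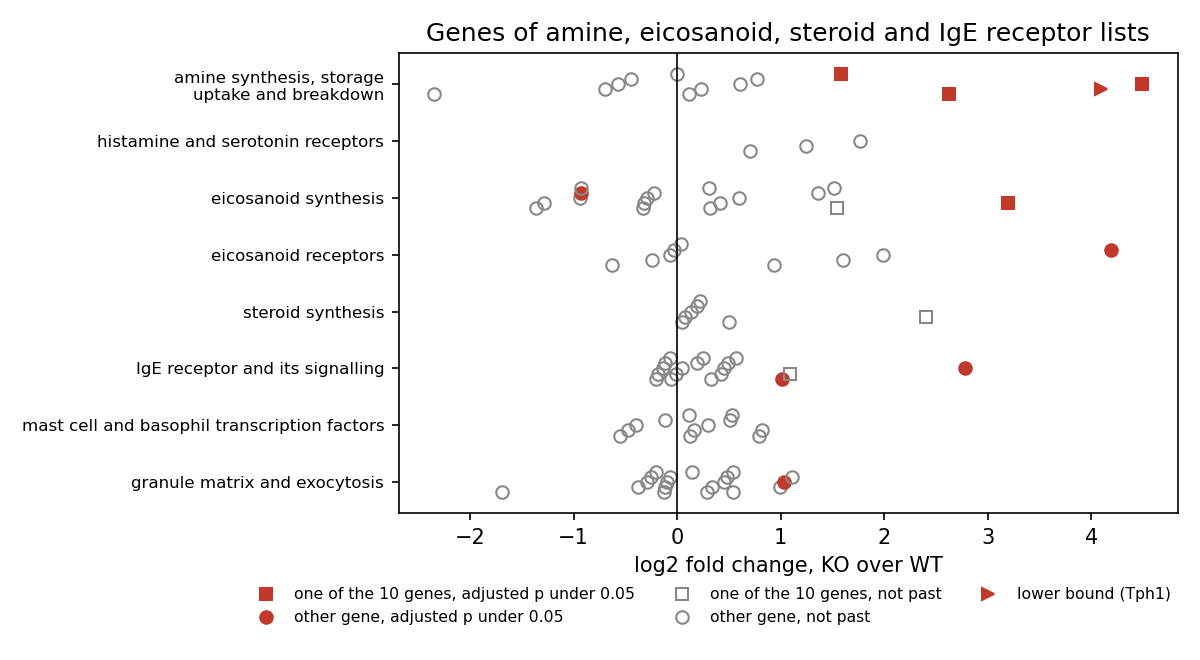
Log2 fold change of KO over WT for every tested gene of 8 lists; squares are among the 10 genes, circles are other genes, and red fill marks an adjusted p under 0.05. Few points of each list are filled, and Ptges3 is the one filled point left of 0.

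Set per kilobase of annotated exon, Slc18a2 stood above the other 9 genes in both groups, at 29.9 ± 10.3 CPM per kilobase in KO and 9.94 ± 1.02 CPM per kilobase in WT (SD, n = 2 each). In KO it was followed by Hdc (3.17), Alox5 (2.35), Slc6a4 (1.61), Hpgds (1.57), Mrgprb2 (1.53), Cyp11a1 (1.32), Fcer1a (0.504), Mrgprb1 (0.416) and Tph1 (0.333), all as mean CPM per kilobase. Below Slc18a2, each gene's pair of KO values overlapped that of the next gene in this order, so neighbours were not separated. In WT the order of mean CPM per kilobase was Hpgds (0.535), Hdc (0.515), Alox5 (0.257), Cyp11a1 (0.248), Fcer1a (0.240), Mrgprb2 (0.0951) and Slc6a4 (0.0702), with Tph1 and Mrgprb1 at 0. There Hpgds and Hdc overlapped, and so did each neighbouring pair from Alox5 to Slc6a4, while Hdc and Alox5 did not. By mean, Slc6a4 stood at place 4 of 10 in KO and at place 8 in WT. Its libraries overlapped those of Alox5 and Hpgds in KO and of Mrgprb2 in WT, so these places are not separated from their neighbours.

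The 10 genes were not all higher in the same KO library. Hdc, Slc18a2, Hpgds and Alox5 were higher in KO replicate 2, with CPM ratios of KO replicate 1 to KO replicate 2 of 0.444 (95% exact interval 0.383 to 0.514), 0.607 (0.578 to 0.639), 0.390 (0.314 to 0.483) and 0.570 (0.463 to 0.700). Slc6a4, Cyp11a1, Mrgprb1, Mrgprb2 and Fcer1a were higher in KO replicate 1, with ratios of 1.88 (1.47 to 2.41), 4.0, 1.85 (1.12 to 3.15), 2.30 (1.56 to 3.43) and 8.90 (2.16 to 78.5). Tph1 had a ratio of 1.53 whose interval, 0.972 to 2.44, included 1. Libraries differ by more than counting error, so these ratios are set beside those of other genes. Of 7403 tested genes with a KO mean of 1 to 30 CPM the central 95% had ratios between 0.274 and 3.28, which leaves only Cyp11a1 outside among the 8 members in that range. For Slc18a2 the band over 1502 genes at 100 to 300 CPM was 0.704 to 1.51, and its 0.607 lay below it.

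Markers of mast cells moved with these genes. Of 12 mast cell markers, which include Hdc, Fcer1a, Mrgprb1 and Mrgprb2, 9 rose and none fell, against 3.77% and 3.01% of all genes tested. The list was chosen with earlier results of these data known. Its members Mrgprb1 and Mrgprb2 passed the filter on low counts through KO alone. Kit itself had 697 and 702 CPM in KO and 617 and 708 CPM in WT (log2 fold change 0.08, adjusted p = 0.766, edgeR). The 7 markers other than Kit and the 10 genes summed to 242 and 128 CPM in KO and 18.6 and 16.1 CPM in WT, and each of the 7 rose. They include the carboxypeptidase Cpa3 (83.3 and 45.9 CPM in KO, 9.76 and 9.94 CPM in WT), the tryptase Tpsab1 (35.3 and 12.7 CPM in KO, 1.01 and 1.93 CPM in WT) and Il1rl1, the interleukin 33 receptor (37.3 and 30.2 CPM in KO, 1.44 and 2.66 CPM in WT). Their summed level was 1.89 times as high in KO replicate 1 as in KO replicate 2, the direction of Slc6a4, Cyp11a1 and the Mrgprb genes and the opposite of Hdc, Slc18a2, Hpgds and Alox5. The 5 protease genes among the 7 had ratios between 1.82 (Cpa3) and 2.78 (Tpsb2), while Il1rl1 was at 1.24 and Ms4a2, at 0.861, lay on the other side. Cpa3 and Il1rl1 had KO means above 30 CPM. The others of the 7 lay between 0.274 and 3.28, the central 95% of tested genes at 1 to 30 CPM. Among the 12 markers only Mrgprb1 was at 0 in both WT libraries. The part of mast cell number in these results was not tested.

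**Figure D4:**
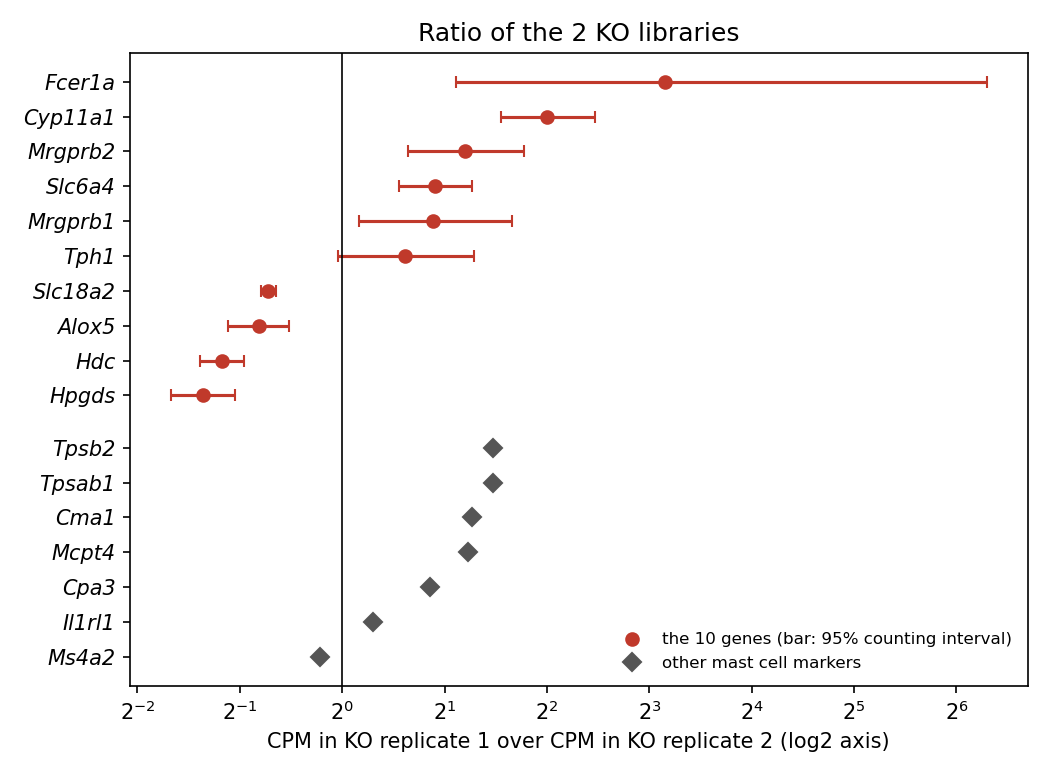
Ratio of CPM in KO replicate 1 to CPM in KO replicate 2 on a log2 axis, for the 10 genes with 95% exact counting intervals (red) and for 7 other mast cell markers (grey diamonds). Hdc, Slc18a2, Hpgds and Alox5 lie left of 1, and the protease markers lie right of it.

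Other cell types that use some of the 10 genes were described by their markers. For comparison, 3.77% of all 14140 genes tested rose and 3.01% fell, and 3465 had an unadjusted p under 0.05 (edgeR). Platelets and megakaryocytes also hold serotonin with Slc6a4 and Slc18a2. Of 12 megakaryocyte and platelet markers 9 were tested, of which 7 had positive log2 fold changes (median 0.74) and Itga2b and Vwf rose. Itga2b, the integrin chain of platelets, had 26.4 and 25.6 CPM in KO and 4.74 and 7.85 CPM in WT (log2 fold change 2.05, SE 0.33, adjusted p = 0.00523), and passed with each library left out. Vwf had 9.94 and 15.1 CPM in KO and 4.27 and 4.95 CPM in WT (log2 fold change 1.44), missing the threshold without KO replicate 2, WT replicate 1 or WT replicate 2 (adjusted p = 0.145, 0.27 and 0.159). The platelet factor gene Pf4 was at 12.7 and 5.54 CPM in KO and 5.74 and 5.15 CPM in WT, with KO replicate 2 level with WT (log2 fold change 0.74, adjusted p = 0.332). Of 8 basophil markers, Ms4a2 and Itga2 rose, although neither passed without WT replicate 2 (adjusted p = 0.117 and 0.0771) and Itga2 also missed it without KO replicate 2 or WT replicate 1 (adjusted p = 0.0906 and 0.216). The basophil protease Mcpt8 had 7.0 and 4.27 CPM in KO and 2.48 and 1.53 CPM in WT (log2 fold change 1.49, adjusted p = 0.126). All 8 basophil markers were tested and had positive log2 fold changes (median 1.42). The list summed to 40.7 and 44.3 CPM in KO and 16.2 and 18.5 CPM in WT. Alox5 is also a gene of neutrophils and monocytes. Of 11 neutrophil markers 10 were tested, 4 rose and Mpo fell. In this list 9 of the 10 had positive log2 fold changes (median 0.94) and all 10 an unadjusted p under 0.05, and DESeq2 called 8 higher. S100a8, a calcium-binding protein of neutrophils, rose, with 156 and 124 CPM in KO and 49.8 and 68.8 CPM in WT (log2 fold change 1.24, adjusted p = 0.00553). The rises numbered 7, 2, 4 and 0 without KO replicate 2, KO replicate 1, WT replicate 2 and WT replicate 1, and Mpo missed the threshold without either WT library. The neutrophil list had sums of 1786 and 1492 CPM in KO and 1701 and 1742 CPM in WT, of which Mpo made up 878 and 799 CPM in KO and 1352 and 1235 CPM in WT. Of 9 monocyte and macrophage markers Fn1 and Ms4a6c rose. The count was 4 without KO replicate 1, and Fn1 alone rose without KO replicate 2, WT replicate 1 or WT replicate 2. All 9 had positive log2 fold changes (median 0.95), with sums of 637 and 573 CPM in KO and 432 and 462 CPM in WT. Of 9 eosinophil markers 8 were tested, and 2 of the 8 had positive log2 fold changes (median -0.85). None passed in the main edgeR test, with 2 at an unadjusted p under 0.05 and 1 called lower by DESeq2. With no filter edgeR called 3 of these markers lower, as it did with the replicate block. Their summed level was 13.8 CPM in KO replicate 1 against 54.1 CPM in KO replicate 2 and 57.6 and 53.0 CPM in WT. Of the 9 T cell markers 5 were tested, and none had an unadjusted p under 0.05 or was called by DESeq2. The lineage-negative gate is meant to leave out mature blood cells. The part of these cell types in the changes of the 10 genes was not tested.

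The genes whose profile over the 4 libraries was most like that of Hdc were Cubn, Rab7b, Cyp26b1, Sned1 and Lama3. Likeness was the root mean square difference of log2(CPM + 0.5) after removing each gene's mean, over 4 libraries and 11322 other genes whose mean reached 2 CPM. It was 0.0929, 0.126, 0.142, 0.145 and 0.161 for these genes. Cubn encodes an endocytic receptor, Rab7b a small GTPase of endosomes, Cyp26b1 an enzyme that breaks down retinoic acid, and Sned1 a matrix protein. Lama3, a laminin chain, was the most abundant of them, with 14 and 23.5 CPM in KO and 2.94 and 4.10 CPM in WT. None of them belongs to the lists used here.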

How the data were processed

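LSK cells were sorted from bone marrow, and 20 ng of their RNA went into each NuGEN Ovation Ultralow library, which was read for 76 cycles, per the labels' protocols. The authors deposited raw counts per gene symbol, whole numbers with no row of unassigned reads. HTSeq 0.8.0, TopHat2 2.1.1, Picard 2.9.4 and SAMtools 1.5, with the build mm10, are named in the submitters' processing notes. No source used here gives the annotation or strand setting of the counting. Without strand the reads of Slc18a2 and Slc6a4 cannot be told from those of annotated antisense genes, nor those of Hpgds from an overlapping pseudogene on the other strand. Cyp11a1 overlaps an annotated noncoding gene on its own strand, which strand would not resolve. None of these overlapping genes is among the genes counted. Positions and exon lengths are from GENCODE M21 (mm10).

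Counts were tested with edgeR 4.0.16 in R 4.3.3 (TMM, filterByExpr with a minimum count of 10 and a minimum total of 15, quasi-likelihood test of KO against WT without covariates). P-values were adjusted by Benjamini-Hochberg over the 14140 genes tested, with a threshold of 0.05, and the SE is the log2 fold change divided by the root of its F statistic. CPM uses TMM-scaled library sizes, and 3 counts correspond to between 0.108 and 0.152 CPM. The step was tested on simulated counts. Alternatives used DESeq2 1.42.0, limma 3.58.1 (voom), upper quartile factors, other filters, each library left out, Rn45s removed and the replicate number as a block.

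The members and lists were chosen with earlier results of these data known. The text names the 10 genes, up to 5 genes past the threshold per process list, up to 4 abundant genes per marker list and the 5 genes most like Hdc. Other genes are named for their role, chosen after their values were seen. The summed level of the megakaryocyte and platelet markers is not reported here.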

Additional observations from a re-analysis of the deposited data

How the results depend on the processing

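The log2 fold changes of the 10 genes were positive under each alternative that gave a value, and none of the 10 was called lower. Fcer1a had no value under the stricter filter or without KO replicate 1, where it fell below the filter and its remaining KO level, 0.102 CPM, was under the WT mean of 0.239 CPM. Between 4 and 8 of them rose when 1 library was left out, 9 in DESeq2, with no filter and with the replicate block, and 6 with upper quartile factors, the stricter filter, Rn45s removed or limma voom. Counts over all genes moved more. They were 878 higher and 792 lower in DESeq2, 1056 and 987 with no filter, and between 160 and 997 higher and 95 and 1161 lower with 1 library left out. Replicate numbers are shared between the groups. The differences of replicate 1 from replicate 2 in KO and in WT correlated at 0.095 across genes. This value cannot show whether libraries of the same number shared a batch, and pairing was not tested. With the replicate block 1314 genes were higher and 1317 lower, and Hpgds (adjusted p = 0.0143), Cyp11a1 (adjusted p = 0.00184) and Mrgprb2 (adjusted p = 0.00073) passed in edgeR, and 9 neutrophil markers were higher. Of genes named beside the 10, Mitf lay between -0.028 (without KO replicate 1) and 1.42 (without WT replicate 2) and Kit between -0.022 (without WT replicate 1) and 0.165 (without WT replicate 2), so their uncalled positive values could turn negative; the cause was not tested. With 1 library left in a group, that library is assumed to vary like the pair in the other. Depth limits Fcer1a, Tph1 and the Mrgprb genes, which rest on fewer than 100 counts in each library.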

Other observations

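Transcription factors of mast cells and basophils were compared as well. None of 12 tested members of that list passed in the main edgeR test, and DESeq2 called 1 lower. With no filter edgeR called 1 higher and 2 lower, as it did with the replicate block. An unadjusted p under 0.05 (edgeR) was reached by 3 of the 12, against 3465 of all 14140 genes tested. Gata2, which mast cells and stem cells both use, had 224 and 159 CPM in KO and 132 and 137 CPM in WT (log2 fold change 0.51, adjusted p = 0.108). Gata2 passed in edgeR with no filter (adjusted p = 0.0381) and with the replicate block (adjusted p = 0.0116). Mitf, the factor that drives many mast cell genes, had 13.2 and 5.28 CPM in KO and 3.41 and 7.32 CPM in WT, so its groups overlapped (log2 fold change 0.79, adjusted p = 0.371). The gene called lower by DESeq2 was Ikzf1, a zinc finger factor of blood cell development, with 578 and 523 CPM in KO and 782 and 748 CPM in WT (log2 fold change -0.47; adjusted p = 0.0574 in edgeR, 0.0181 in DESeq2, 0.0318 in limma voom). Spi1, the myeloid factor PU.1, had 87.1 and 52.9 CPM in KO and 112 and 93.2 CPM in WT (log2 fold change -0.55, adjusted p = 0.159, edgeR).

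Of 21 genes of the granule matrix and of exocytosis, 19 were tested and Lyst, a regulator of granule size, rose, with 225 and 299 CPM in KO and 130 and 127 CPM in WT (log2 fold change 1.03, SE 0.17, adjusted p = 0.00612; adjusted p = 0.0624 without WT replicate 2). The list median was 0.15. Stx3 and Stxbp2, parts of the membrane fusion machinery, had log2 fold changes of 1.11 and 0.54 and did not pass (adjusted p = 0.0713 and 0.0712).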
